A study of Mus musculus with 15 samples.

Results

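A set of 9 long noncoding RNAs were followed in the mouse auditory nerve after loud noise: Neat1, Malat1, Meg3, Rian, Mirg, Miat, Gas5, Snhg1 and Kcnq1ot1. They are 9 of 18193 genes with a probe set of their own, and the platform annotation paired 43 of the 45101 probe sets with 1 of these symbols alone, and each probe set was kept apart. A further probe set carried 2 symbols, of which Gas5 was 1, and was not used for any gene. The genes were chosen with their log2 values over the 5 groups already known. Their levels and their differences from control are therefore given as a description, with no test.

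The samples were 15 arrays, each from the auditory nerve of a single CBA/CaJ mouse, with the tissue of both ears joined. Control mice heard no noise, and all 3 were female. Exposed mice, aged 5 to 12 weeks, heard 2 h of octave-band noise (8 to 16 kHz, level 106 dB SPL) and were sampled immediately (2 females and 1 male), after 1 day (3 males), after 7 days (1 male and 2 females) or after 14 days (1 male and 2 females). Sex therefore cannot be told apart from time in a direct comparison of 1 day with control. What was sampled is the modiolus, the bony core that carries the nerve and the spiral ganglion. The bony shell and lateral wall had been removed, and so had much, but not all, of the sensory epithelium. Neurons, glia and other cells are thus measured together, and fewer cells of a type cannot be told apart from less RNA per cell.

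Long noncoding RNAs act as RNA and are not translated into a long protein. Neat1 is the scaffold of paraspeckles, nuclear bodies that hold RNA-binding proteins, and Malat1, its neighbour in the genome, lies in nuclear speckles, where splicing factors gather. Meg3, Rian and Mirg are read from the maternal copy of the imprinted Dlk1-Dio3 locus, and Rian and Mirg carry small nucleolar RNAs and microRNAs. Miat is a nuclear RNA of neurons. Gas5 and Snhg1 carry small nucleolar RNAs in their introns, and their spliced transcripts are degraded by nonsense-mediated decay. Kcnq1ot1 is read from the paternal copy of the Kcnq1 domain and silences neighbouring genes.

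Of the markers of the labelled tissue, all 12 neuron markers and all 5 measured Schwann cell markers lay above the filter on low values, the lowest 25% of mean levels. The summed level of the neuron list was 15.35 to 15.42 (log2) in controls, 15.44 to 15.47 immediately after noise, 15.23 to 15.29 at 1 day, 15.29 to 15.44 at 7 days and 15.31 to 15.39 at 14 days, and 0 of 12 markers passed limma's test at any time. Schwann cell markers summed to 15.04 to 15.13 in controls and 14.96 to 15.03 at 1 day, when 1 of 5 was lower. Macrophage markers summed to 10.95 to 11.15 in controls and 11.61 to 11.76 at 1 day, when 4 of 8 were higher. Bone markers summed to 11.95 to 12.86 in controls and 11.09 to 11.58 at 1 day, when 2 of 5 were lower. Of all probe sets, 0.986% were called higher at 1 day and 0.85% lower. These calls set males against females with no sex term. With a sex term the calls over all probe sets at 1 day went from 620 to 44, and the markers were not counted in that fit. No marker of oligodendrocytes (10.89 to 11.85 in controls), endothelium (9.53 to 9.62), hair cells (8.26 to 8.48) or red cells (6.41 to 8.36) passed at any time, and the hair cell motor gene Slc26a5 lay below the filter. The 18S ribosomal RNA control set at the 5' end read 11.82 to 12.37 in controls, 12.49 to 12.69 immediately, 11.97 to 12.06 at 1 day, 11.00 to 11.49 at 7 days and 11.30 to 11.67 at 14 days. The part of these shifts in the values of the noncoding RNAs was not tested.

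Promoter windows, from 250 bases before to 50 bases after an annotated start, were found in RefSeq (GRCm38.p6) for 8 of the 9 genes, 10 windows in all. No window was available for Neat1, so its promoter was not searched for any of the sites below. The 4 windows printed here belong to genes with different time courses, whose values were already known. They differ in whether they hold the cyclic AMP response element, the site of the activity-regulated factor CREB. Whether the element has a part in any time course was not tested. Capitals mark that element, TGACGTCA, or its core TGACGT, on either strand, and each full element also holds the core.
Meg3 (chr12:109540746-109541045, plus strand): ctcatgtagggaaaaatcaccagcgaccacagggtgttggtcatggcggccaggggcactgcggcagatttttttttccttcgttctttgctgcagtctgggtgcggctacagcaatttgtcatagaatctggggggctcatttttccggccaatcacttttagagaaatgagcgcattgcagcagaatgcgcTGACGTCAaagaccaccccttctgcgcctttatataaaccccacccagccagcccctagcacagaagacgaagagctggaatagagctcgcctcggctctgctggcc
Gas5 (chr1:161034916-161035215, plus strand): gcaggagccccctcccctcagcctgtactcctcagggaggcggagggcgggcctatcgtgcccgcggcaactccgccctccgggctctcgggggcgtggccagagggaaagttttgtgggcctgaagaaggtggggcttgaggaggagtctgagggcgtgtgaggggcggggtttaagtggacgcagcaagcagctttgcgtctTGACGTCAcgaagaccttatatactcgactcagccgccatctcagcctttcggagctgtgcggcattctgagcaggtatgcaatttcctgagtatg
Malat1 (chr19:5802623-5802922, minus strand): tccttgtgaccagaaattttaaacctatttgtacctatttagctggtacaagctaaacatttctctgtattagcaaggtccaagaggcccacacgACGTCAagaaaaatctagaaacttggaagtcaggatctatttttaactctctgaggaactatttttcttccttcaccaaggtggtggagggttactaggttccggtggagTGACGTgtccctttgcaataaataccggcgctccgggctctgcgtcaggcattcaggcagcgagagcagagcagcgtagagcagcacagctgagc
Snhg1 (chr19:8723237-8723536, plus strand): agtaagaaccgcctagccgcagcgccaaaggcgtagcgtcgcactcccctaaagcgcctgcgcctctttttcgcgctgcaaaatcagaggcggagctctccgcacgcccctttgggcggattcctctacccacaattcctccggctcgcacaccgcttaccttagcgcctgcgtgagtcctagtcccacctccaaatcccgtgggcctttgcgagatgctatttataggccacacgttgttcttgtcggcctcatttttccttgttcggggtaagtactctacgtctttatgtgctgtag
The full element was in 2 of the 10 windows, those of Meg3 (starting 57 bases before the start site) and Gas5 (46 bases before), and in 1.79% of all 32851 windows of that length. Its core was in 4 of the 10 windows and in 7.51% of all windows. Besides Meg3 and Gas5, these were the windows of Malat1, with matches starting 155 and 45 bases before the start, and Kcnq1ot1, with a match starting 43 bases before it. Meg3 and Gas5 each had another window, not printed here, that held neither the element nor its core. None of the 10 held TGANTCA, the AP-1 site (7.81% of all windows), or CACGTG, an E-box (7.15%). A match is a description of the letters and not of binding.

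Across the 9 genes the differences went both ways at every time. Call a probe set apart from control where its 3 arrays all lay above, or all below, the 3 controls. Of the 42 member probe sets above the filter, 5 were apart and higher immediately after noise and 2 lower, where 9.89% and 11% of all 33775 probe sets were. At 1 day 5 were higher and 8 lower (background 9.26% and 10.6%), at 7 days 8 were higher and 6 lower (6.85% and 5.79%), and at 14 days 5 were higher and 4 lower (7.57% and 6.94%). The median difference of the members was 0.10, -0.04, 0.14 and 0.05 in that order, and that of all probe sets lay between -0.01 and 0.01. Of the 43, which include the Snhg1 probe set below the filter, 28 were apart from control at 1 or more times and 15 at none. The share of all probe sets apart at any of the 4 times was not computed, so this count has no background beside it. Between consecutive times, from immediate to 1 day 5 were higher and 13 lower (12.9% and 13.3%), from 1 to 7 days 20 and 8 (11% and 10.7%), and from 7 to 14 days 1 and 8 (2.79% and 2.15%). Nothing is read from these shares, since the genes were chosen on the same values.

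**Figure D1:**
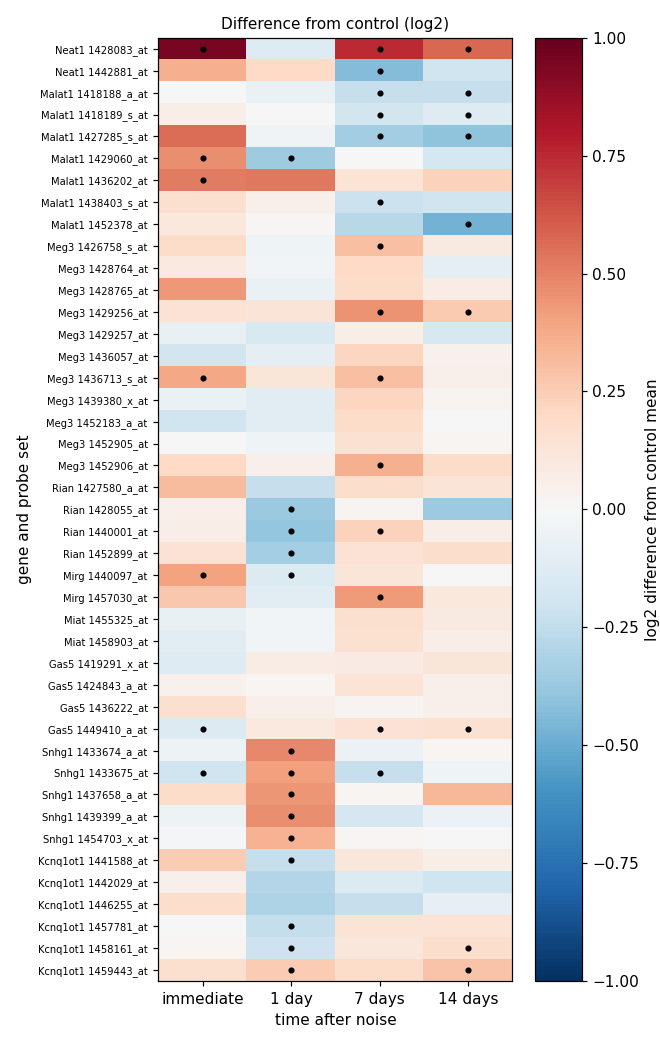
Difference from the control mean (log2, colour scale) for each of the 43 probe sets (rows, grouped by gene) at each of 4 times after noise (columns); a dot marks 3 arrays that do not overlap the 3 controls. Snhg1 carries dots in all 5 rows at 1 day, and Malat1 carries 4 dots on the lower side at 7 days.

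The map of differences shows that the genes did not share a time course. The Neat1 probe set 1428083_at had its highest mean immediately after noise, all 5 Snhg1 probe sets carry a dot at 1 day, and 4 of the 11 Meg3 probe sets carry a dot at 7 days.

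Neat1 had the largest difference among the members. Its probe set 1428083_at read 9.40, 9.25 and 9.54 (log2) in the controls and 10.14, 10.28 and 10.63 immediately after noise. At 1 day it read 9.08, 9.33 and 9.40, at 7 days 10.16, 10.07 and 10.20, and at 14 days 9.92, 10.09 and 9.90. All 9 arrays of the immediate, 7-day and 14-day groups, the lowest at 9.90, lay above all 6 of the control and 1-day groups, the highest at 9.54. The difference from control was 0.95 ± 0.11 (SE of the fit, n = 3 against 3; 1.94-fold) immediately, -0.13 ± 0.11 at 1 day, 0.75 ± 0.11 (1.68-fold) at 7 days and 0.57 ± 0.11 (1.49-fold) at 14 days. Thus the level at 1 day was 1.08 ± 0.11 (log2) under that of the immediate group, and the level at 7 days was 0.87 ± 0.11 above that of 1 day. The 7-day and 14-day arrays overlapped, with a difference of -0.17 ± 0.11.

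The other Neat1 probe set did not follow that course. Values of 1442881_at were 7.09, 7.35 and 7.16 in controls, 7.21, 7.58 and 7.88 immediately, and 7.58, 7.35 and 7.26 at 1 day. They were 6.68, 6.98 and 6.64 at 7 days and 7.13, 7.08 and 6.80 at 14 days. Only the 7-day arrays lay apart from the controls, and they were lower, by -0.43 ± 0.15, where 1428083_at was higher. Over the 15 arrays the pair had a Pearson r of -0.09 (Spearman rho -0.20), and r was 0.21 on deviations from the group means. The probe annotation does not say which Neat1 transcript either probe set reads.

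**Figure D2:**
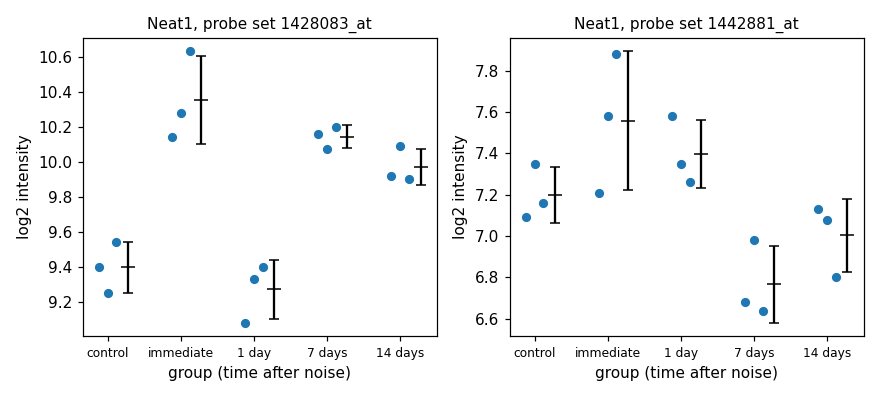
Log2 value of each array (points) with the mean and SD (n = 3) of each group, for the Neat1 probe sets 1428083_at and 1442881_at, over control and 4 times after noise. For 1428083_at the control and 1-day arrays all lie at or below 9.54 and the other 9 at or above 9.90; for 1442881_at the 7-day arrays are the lowest group.

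The plot of Neat1 by array shows the contrast between its probe sets. Only the immediate group had a mean above control in both; at 1, 7 and 14 days the means lay on opposite sides of control, and those at 1 and 14 days were not apart from it for 1442881_at. With sex in the fit the differences of 1428083_at were 0.91, -0.25, 0.71 and 0.53 in order of time.

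Malat1, the neighbour of Neat1 with 0 annotated genes between them on chromosome 19, was read by 7 probe sets. Probe set 1429060_at read 10.66, 10.58 and 10.60 in controls, 10.94, 11.22 and 11.08 immediately after noise, and 10.42, 10.20 and 10.16 at 1 day. Its immediate arrays were all above the controls (0.47 ± 0.12) and its 1-day arrays all below them (-0.35 ± 0.12). At 7 and 14 days it overlapped the controls. Probe set 1436202_at was also apart and higher immediately, by 0.52 ± 0.24, but its arrays spread widely, from 9.23 to 10.14 at 1 day.

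Late after noise the Malat1 values were lower. The brightest probe set, 1418189_s_at, read 14.22, 14.19 and 14.22 in controls, 14.12, 13.87 and 14.08 at 7 days, and 14.05, 14.05 and 14.15 at 14 days. These differences, -0.19 ± 0.06 and -0.13 ± 0.06, are small in size, yet no array of either time reached a control. For 1418188_a_at the difference was -0.23 ± 0.05 at both times, and for 1427285_s_at it was -0.35 ± 0.16 and -0.40 ± 0.16. Immediately after noise 1427285_s_at read 7.30, 7.85 and 7.93 against 7.41, 7.04 and 6.95 in controls, a difference of 0.56 ± 0.16 with overlapping arrays. In all, 4 of 7 probe sets were apart and lower at 7 days and 4 of 7 at 14 days, with 1438403_s_at (-0.21 ± 0.08) among the former and 1452378_at (-0.47 ± 0.14) among the latter. Without control replicate 1 the 7-day difference of 1427285_s_at was -0.21 and that of 1438403_s_at -0.13, and without 7-day replicate 2 that of 1418189_s_at was -0.11.

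**Figure D3:**
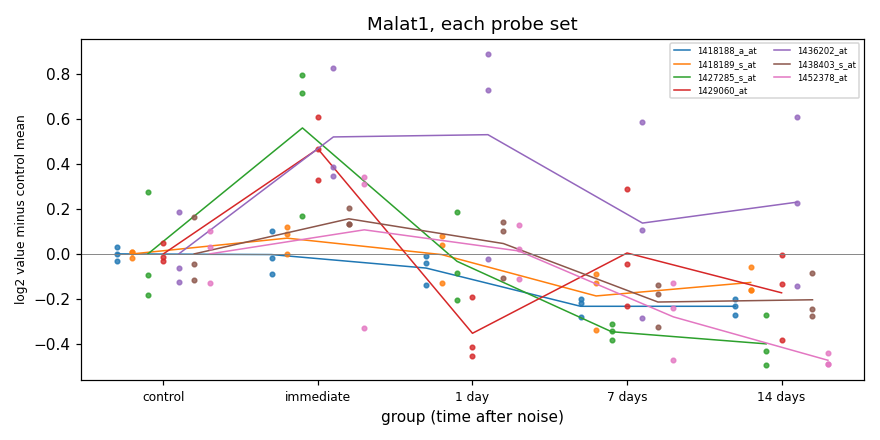
Log2 value minus the control mean for each array (points) of the 7 Malat1 probe sets (colours; lines join group means) in control and at 4 times after noise. Probe set 1429060_at runs from 0.47 immediately to -0.35 at 1 day, and 5 of the 7 group means lie below 0 at 7 days.

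The plot of Malat1 shows agreement among most probe sets, with 1436202_at as the exception. Median r between pairs of Malat1 probe sets was 0.64 over the 15 arrays, and the lowest, -0.24, was that of 1429060_at with 1436202_at.

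Meg3, the best covered member with 11 probe sets, had its highest mean at 7 days in 9 of them; 1428765_at and 1436713_s_at were highest immediately after noise. Probe set 1429256_at read 10.18, 10.31 and 10.47 in controls and 10.75, 10.80 and 10.76 at 7 days, a difference of 0.45 ± 0.08 (1.37-fold). At 14 days it read 10.58, 10.63 and 10.54, still above every control (0.26 ± 0.08), while its immediate and 1-day arrays overlapped the controls. All 11 probe sets had a 7-day mean above control, from 0.06 to 0.45, and 4 of them were apart from it. The smallest of these, that of 1429257_at, was -0.008 without control replicate 1 and 0.009 with array weights. Against 1 day, 9 of 11 were apart and higher at 7 days, where 11% of all probe sets were, and 7 of 11 were apart and lower at 14 days against 7 days (background 2.15%). Consecutive comparisons share the 7-day arrays, so these counts are not separate evidence.

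Rian, which lies downstream of Meg3, was lowest at 1 day. Values of 1440001_at were 7.84, 7.81 and 8.00 in controls, 7.66, 7.44 and 7.40 at 1 day, and 8.26, 8.07 and 8.02 at 7 days. The 1-day arrays were all lower than the controls (-0.38 ± 0.10) and the 7-day arrays all higher (0.23 ± 0.10). All 4 Rian probe sets had a 1-day mean below control, from -0.38 to -0.23, and 3 were apart. For 1428055_at the 1-day difference was -0.37 ± 0.22 and became -0.79 with sex in the fit. In that probe set 14-day replicate 2 read 6.03, against 6.98 and 6.89 in the other arrays of its group.

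Mirg, a host of microRNAs, was highest at the early time by 1 probe set and at the late time by the other. Probe set 1440097_at read 6.95, 6.93 and 7.01 in controls, 7.32, 7.35 and 7.43 immediately (0.40 ± 0.08) and 6.72, 6.89 and 6.88 at 1 day (-0.13 ± 0.08, or -0.08 without 1-day replicate 1). Probe set 1457030_at was apart only at 7 days, at 6.98, 7.38 and 7.10 against 6.83, 6.45 and 6.91 (0.42 ± 0.16). In the tables used here 10 microRNA hairpins lie inside Mirg, 3 inside Rian and 1 inside Meg3, and Rian holds 11 small nucleolar RNA genes.

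Miat was the only one of the 9 genes with no probe set apart from control. Its probe sets 1455325_at and 1458903_at differed from control by -0.11 to 0.16, and neither was apart at any time, though both were apart and higher at 7 days than at 1 day. Across the 15 arrays 1455325_at had an r of 0.89 with the Meg3 probe set 1452905_at, and 0.96 on deviations from group means. Whether a technical step shared by arrays has a part in this was not tested, so it is a description only.

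**Figure D4:**
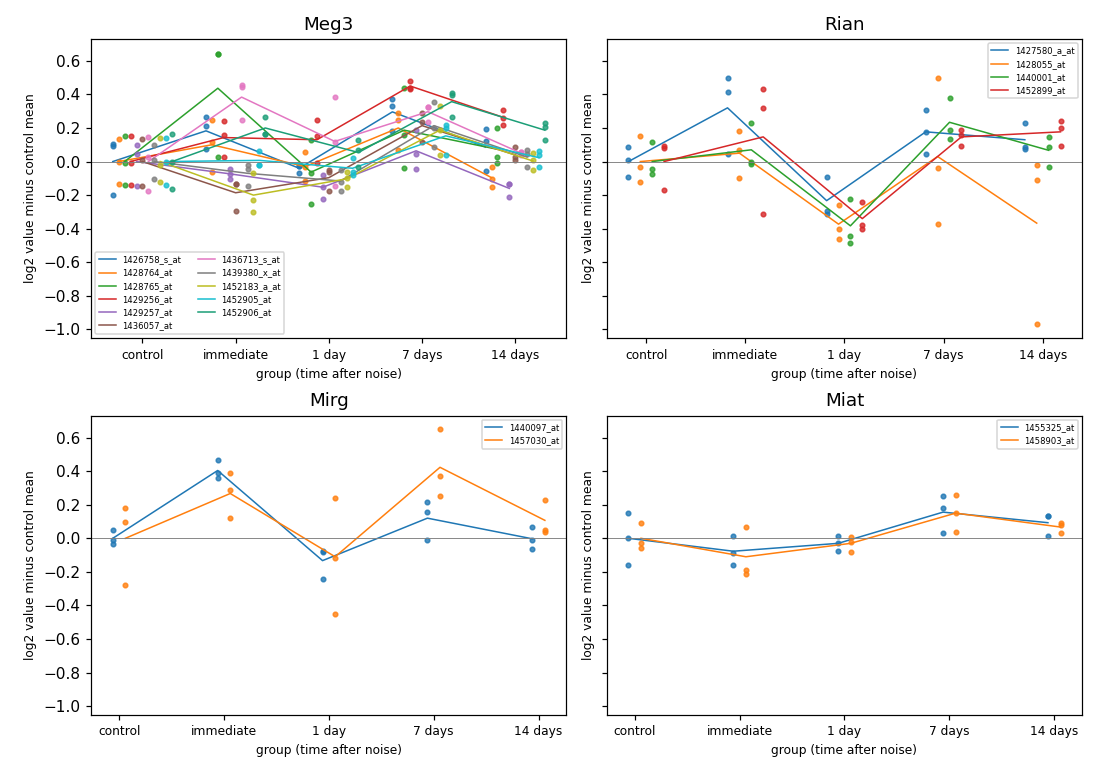
Log2 value minus the control mean for each array (points; lines join group means) of the Meg3, Rian, Mirg and Miat probe sets in control and at 4 times after noise. All 11 Meg3 means lie above 0 at 7 days, and all 4 Rian means lie below 0 at 1 day.

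The plot of the Dlk1-Dio3 genes and Miat shows that the 1-day group had the lowest mean in all 4 Rian probe sets, though for 1428055_at the 14-day mean (6.633) was nearly as low as that of 1 day (6.627). Neuron markers were also lowest at 1 day as a sum (15.23 to 15.29), and their part in the Rian values was not tested.

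Snhg1 was the member whose probe sets agreed most. Values of 1433674_a_at were 8.85, 8.95 and 8.67 in controls, 8.81, 8.72 and 8.78 immediately, 9.25, 9.43 and 9.22 at 1 day, 8.70, 8.80 and 8.80 at 7 days and 8.79, 8.92 and 8.81 at 14 days. The 1-day arrays stood above all 12 others, 0.48 ± 0.08 (1.39-fold) above control. All 5 Snhg1 probe sets were apart and higher at 1 day, from 0.35 to 0.48, including 1454703_x_at, which lay below the filter. For 1433675_at the immediate (-0.20 ± 0.07) and 7-day (-0.23 ± 0.07) arrays were all lower than the controls. The 1-day animals were all male, and with sex in the fit the 5 differences ran from 0.28 to 0.53. Macrophage markers were also highest in that group (11.61 to 11.76), and their part was not tested.

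Gas5, of the same kind as Snhg1, differed little. Probe set 1449410_a_at read 10.25, 10.28 and 10.12 in controls and 10.09, 10.07 and 10.09 immediately, a difference of -0.13 ± 0.05. It was higher than control at 7 days (0.14 ± 0.05, or 0.095 without control replicate 3) and at 14 days (0.15 ± 0.05). The other 3 Gas5 probe sets overlapped the controls at every time, and the median r between Gas5 pairs was -0.05, against 0.79 for Snhg1. That median covers a wide range. Probe set 1449410_a_at had an r of 0.90 with 1419291_x_at, the highest pair, and of -0.31 with the dimmer 1436222_at, the lowest. RefSeq places 8 small nucleolar RNA genes inside Gas5 and 8 inside Snhg1.

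Kcnq1ot1 was lower at 1 day in 5 of 6 probe sets by mean, and 3 were apart. Probe set 1441588_at read 6.63, 6.52 and 6.32 in controls and 6.30, 6.23 and 6.24 at 1 day (-0.23 ± 0.10, or -0.41 with sex in the fit). The remaining probe set, 1459443_at, was apart and higher, by 0.26 ± 0.12, and by 0.105 with sex in the fit. For 1457781_at the difference was -0.24 ± 0.09, or -0.15 without 1-day replicate 3. At 14 days 1458161_at (0.17 ± 0.07) and 1459443_at (0.28 ± 0.12) were above every control.

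**Figure D5:**
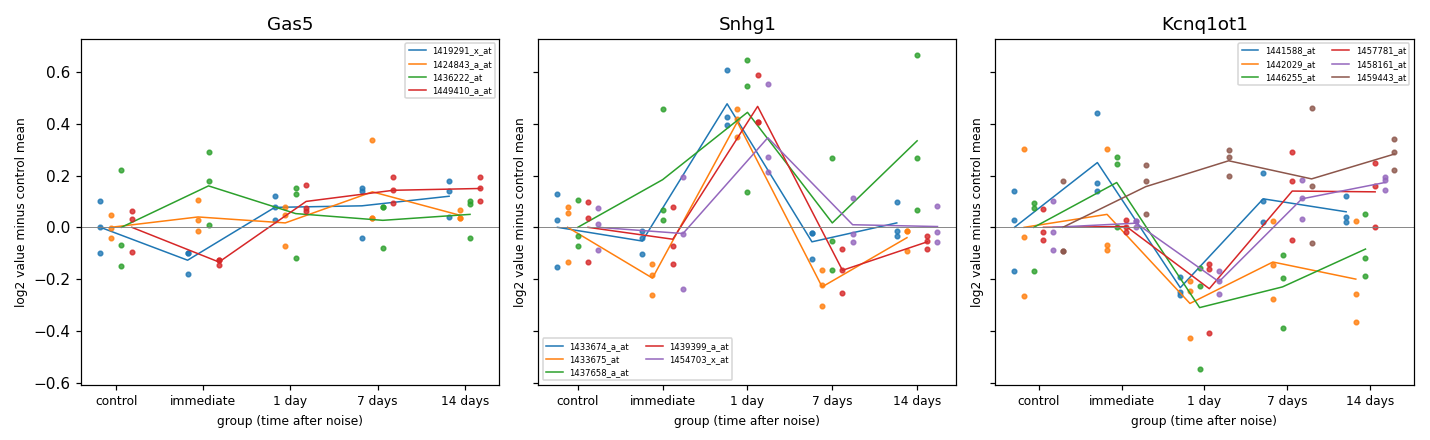
Log2 value minus the control mean for each array (points; lines join group means) of the Gas5, Snhg1 and Kcnq1ot1 probe sets in control and at 4 times after noise. All 5 Snhg1 means peak at 1 day between 0.35 and 0.48, while 5 of 6 Kcnq1ot1 means lie below 0 there.

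The plot of Gas5, Snhg1 and Kcnq1ot1 shows opposite 1-day positions for Snhg1 and Kcnq1ot1. Both differences are against the same 3 controls, so they are not independent.

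Sex offered a comparison that the choice of genes did not use. It rests on the immediate, 7-day and 14-day groups, each with 1 male and 2 females. So few males cannot show that the sexes were alike. With group in the fit, males differed from females by -0.24 to 0.42 (log2) over the 42 probe sets, and 0 were called (limma, lowest adjusted p = 0.989), where 23 of all probe sets, 0.0681%, were. At an unadjusted p under 0.05 there were 3, where 3.94% of all were: Malat1 1429060_at (0.23 ± 0.09), Rian 1428055_at (0.42 ± 0.16) and Kcnq1ot1 1441588_at (0.175 ± 0.079). All 3 were higher in males. With sex in the fit the 1-day differences of these probe sets became -0.58, -0.79 and -0.41. Each is lower by construction: all 1-day mice were male and all controls female, so the male term is subtracted in full.

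Genes related to these RNAs as protein partners, by locus or as RNAs of the same kind were tested against control as 8 lists. Of their 124 entries 99 could be tested. Immediately after noise 1 gene was higher and 0 lower, where 0.518% and 0.172% of all probe sets were, and 19 of 99 had an unadjusted p under 0.05, where 15.1% of all did. That gene was Sfpq, a core paraspeckle protein that binds Neat1. It read 8.66, 8.80 and 8.83 in controls and 9.55, 9.34 and 9.77 immediately, and rose by 0.79 ± 0.16 (limma adjusted p = 0.043). Of its 6 probe sets 2 were called, and the 6 ranged from -0.04 to 0.79. The call ended without any single control or immediate array, 1-day replicate 2 or 3, or 14-day replicate 2 (adjusted p from 0.0527 to 0.213). Other core paraspeckle proteins, Nono and Pspc1, were not called at any time.

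At 1 day 1 listed gene rose and 1 fell, where 0.986% and 0.85% of all probe sets did, and 16 of 99 had an unadjusted p under 0.05, where 15.7% of all did. Both are microRNA hosts of the list of other long noncoding RNAs. Mir124a-1hg, host of the neuronal microRNA miR-124, read 8.11, 8.20 and 8.36 in controls and 7.73, 7.64 and 7.74 at 1 day, and fell by 0.52 ± 0.09 (limma adjusted p = 0.00755). Mir22hg, host of miR-22, read 9.70, 9.33 and 9.34 in controls and 9.83, 10.04 and 9.90 at 1 day, and rose by 0.47 ± 0.11 (limma adjusted p = 0.0375). With sex in the fit the differences were -0.47 and 0.37, and neither was called (limma adjusted p = 0.109 and 0.268). The Mir124a-1hg call also ended without control replicate 3 (0.052) or 1-day replicate 2 (0.0503), and the Mir22hg call ended without control replicate 2 (0.124), control replicate 3 (0.166), 1-day replicate 2 (0.184) and 1-day replicate 3 (0.096).

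At 7 days 0 of 99 were called by limma, where 0.0148% of all probe sets were higher and 0.0355% lower, and 15 of 99 had an unadjusted p under 0.05, where 11.4% of all did. At 14 days 0 of 99 were called, as were 0 of all probe sets, and 11 of 99 had an unadjusted p under 0.05, where 8.35% of all did. By list, paraspeckle proteins had 1 of 18 called immediately and the other long noncoding RNAs 2 of 18 at 1 day. The lists of nuclear speckle proteins (23 tested), Dlk1-Dio3 coding genes (3), other small nucleolar RNA hosts (15), nonsense-mediated decay factors (10), Kcnq1 domain coding genes (9) and Miat-binding proteins (3) had 0 called at every time. Qk, which encodes the Quaking protein of the series title was in the last of these lists and differed from control by -0.07 ± 0.07 to 0.12 ± 0.07.

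Other genes shared the courses of single members over the 15 arrays. Nearest to Neat1 1428083_at was Rapgef6, a Rap GTPase exchange factor, with a Pearson r of 0.967, followed by Rcan1, the calcineurin regulator (0.935), Pter (0.929), Gprc5b (0.925) and Rapgef5 (0.921). Mean Rapgef6 levels were 6.87 in controls, 7.33 immediately, 6.84 at 1 day, 7.24 at 7 days and 7.14 at 14 days. Nearest to Malat1 1418189_s_at were Gcc2 (0.949), Zkscan1 (0.920), Prrc2c (0.919), Kmt2e (0.918) and Hnrnpr (0.915). For Meg3 1452905_at they were Sez6 (0.893), Miat (0.891), Cecr2 (0.872), Ppp2r1a (0.856) and 6430548M08Rik (0.849), and for Gas5 1419291_x_at Glb1l2 (0.887), Cryzl1 (0.868), Cryzl2 (0.861), Rcn2 (0.857) and Trim3 (0.851). These are the highest of 27704, 27699, 27695 and 27702 probe sets ranked in turn, so high values among them follow from the ranking.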

How the data were processed

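The deposited values are log2 levels from Affymetrix arrays, used as the authors deposited them. The submitters' processing notes name Expression Console, RMA and MAS5, and the sources used here do not say which of them gave these values. Values ran from 2.06 to 14.63 and array medians from 5.87 to 5.91. Per the labels' protocols, each array took 50 ng of total RNA.

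Of 45037 probe sets that are not controls, those in the lowest 25% of mean level (4.16) were left out, and 33775 were kept. A linear model of 5 groups over 15 arrays used limma 3.58.1 (R 4.3.3), with lmFit and a trended eBayes and 10 residual degrees of freedom, and SEs come from that fit. Tests were two-sided, with Benjamini-Hochberg adjustment over all kept probe sets and a threshold of 0.05. Sex was tested with group in the fit. A listed gene was represented by its probe set of highest mean. Named were all member probe sets with 1 symbol, the 2 called genes with the largest difference per related list and comparison, and the 5 genes with the highest r for the brightest probe set of Neat1, Malat1, Meg3 and Gas5. Any other gene was named after its values had been seen. The functions were tested on simulated data. The members and lists were chosen with earlier results of these data known. Alternatives were other filters, eBayes settings, array weights, scalings, a sex term, female arrays alone, a replicate block and each array left out. The number of arrays limits the precision.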

Additional observations from a re-analysis of the deposited data

Results flagged for a closer look

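In 6 member probe sets the 3 arrays of 1 time all lay above the controls and those of another all below them. The same count was not made over all probe sets, so whether 6 is many cannot be said. The difference between the times was not tested, since the genes were chosen on these values. Malat1 1429060_at differed from control by 0.467 immediately after noise and by -0.353 at 1 day. Mirg 1440097_at differed by 0.403 immediately and by -0.133 at 1 day. Rian 1440001_at differed by -0.383 at 1 day and by 0.233 at 7 days. Kcnq1ot1 1458161_at differed by -0.21 at 1 day and by 0.173 at 14 days. Snhg1 1433675_at differed by -0.197 immediately, 0.407 at 1 day and -0.23 at 7 days. Gas5 1449410_a_at differed by -0.133 immediately, 0.143 at 7 days and 0.15 at 14 days.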

How the results depend on the processing

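All 44 differences from control whose arrays did not overlap kept their direction under every alternative run, and 33 of them moved by no more than 1.5 times. For most alternatives the direction was fixed in advance. Where no arrays overlap, leaving out arrays, female arrays alone, array weights or the replicate block cannot reverse it. Only the scalings and the sex term could have done so. Of listed genes immediately after noise 1 was called, against 0 without the eBayes trend, with robust eBayes or in female arrays, 2 after quantile normalization, with a common 75th percentile or with the replicate number as a block, 3 in a fit to the compared groups alone or with the mean over probe sets, 8 with array weights, and 0 to 2 with an array left out. At 1 day 2 were called, against 4 with the lowest 50% left out, 1 without the trend, 7 with array weights, 0 with a sex term, 3 with the replicate block and 0 to 4 with an array left out (4 without control replicate 1 or 7-day replicate 3). At 7 days 0 were called, and 0 to 2 with an array left out (2, Mir22hg and Lncpint, without 7-day replicate 1), and at 14 days 0 under each alternative. Each array is from a separate animal, so replicate numbers were not taken as pairs in the main fit. On deviations from group means, same-number pairs correlated from -0.28 to 0.30, with a median of 0.05. The median for different numbers was -0.02, and 9 of 15 arrays correlated best with their own number. Whether arrays of the same number share a step was not tested.

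Groups of fewer arrays are apart more often by construction. Without an array, the member probe sets apart from control numbered 8 to 16 immediately (7 with all arrays), 15 to 19 at 1 day (13), 15 to 25 at 7 days (14) and 9 to 16 at 14 days (9). Between consecutive times they numbered 20 to 28 (18), 29 to 34 (28) and 11 to 16 (9), comparisons added after the data were seen. In female arrays, 16 were apart at 14 days and 18 between 7 and 14 days. For sex 0 were called under each alternative. Without control replicate 1 the 14-day difference of Malat1 1427285_s_at was -0.26. The cause of these moves was not tested beyond the number of arrays. The dimmest Snhg1 probe set lies below the filter, and how the processing acts on differences at such low levels was not tested.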

Other observations

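The probe set that the annotation pairs with Gas5 and a second gene, left out above, read 7.13 to 7.68 in controls, 7.39 to 7.77 immediately after noise, 7.18 to 7.76 at 1 day, 7.45 to 7.78 at 7 days and 7.45 to 7.70 at 14 days. Its arrays overlapped the controls at every time.

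Among listed noncoding RNAs and splicing proteins that did not pass the test, Tug1, a nuclear long noncoding RNA, differed from control by -0.27 ± 0.07 immediately after noise (limma adjusted p = 0.0892). Tra2a, a splicing activator, differed by 0.68 ± 0.18 (limma adjusted p = 0.0848). Oip5os1, a cytoplasmic long noncoding RNA, differed by -0.26 ± 0.06 at 1 day (limma adjusted p = 0.0558). Mir22hg, called higher at 1 day, differed from control by -0.48 ± 0.11 at 7 days, on the other side (limma adjusted p = 0.119). These genes were chosen after their values were seen.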
